A study of Mus musculus with 17 samples.

Results

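Cxcl9, Cxcl10, Cxcr3, Ifng, Ifngr1, Irf1, Gbp3 and Cd274 make up a short axis of interferon gamma, its receptor and its targets, and they were followed across 3 diet groups in mouse periprostatic fat, an adipose depot that surrounds the prostate. They are 8 of the 22180 genes that the arrays measured with a probe set of 1 gene symbol, and each of the 8 had 1 such probe set. They were chosen from the values of these same arrays, as genes lower after high-fat feeding while other inflammatory genes were higher, so their levels and differences are given as a description without a test. Set against the values, that wording held plainly for Cxcl9 and Gbp3 and not for the other 6, as given gene by gene below.

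Each of 17 male C57BL/6J mice, a wild-type inbred strain, gave RNA for 1 array, and the animals were separate. Fat supplied 10 kcal% of the food of the LFD group (6 mice) and 60 kcal% of that of the HFD group (6 mice), both eaten without limit. The HFD_CR group of 5 mice ate the 60 kcal% fat diet freely for 12 weeks and then, for 7 weeks, 70% of what the HFD mice ate, a restriction of 30%. All diets began at 6 weeks of age, and fat was taken and frozen at 25 weeks of age. The tissue is a mixture of cell types, so fewer cells of a type and less RNA per cell cannot be told apart in any value given here. The 3 comparisons share their groups, with HFD in both comparisons that name it and LFD in both that name it, and values for them are set side by side for that reason only.

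Interferon gamma is a cytokine made mainly by T cells and NK cells. It binds a receptor of the Ifngr1 and Ifngr2 chains on most cell types, and Jak kinases then pass the signal to the nucleus, where Irf1 and other genes are switched on at GAS elements. Irf1 and related factors act at ISRE elements of later targets, among them the chemokines Cxcl9 and Cxcl10, guanylate-binding proteins such as Gbp3, and Cd274, the checkpoint ligand PD-L1. Cxcl9 and Cxcl10 draw cells that carry the receptor Cxcr3, chiefly activated T cells and NK cells, and in adipose tissue this circuit is known from the inflammation of obesity.

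Cxcl9 and Cxcl10 lie next to each other but for Art3 in the order of genes that RefSeq labels protein-coding on chromosome 5 (Sdad1, Cxcl9, Art3, Cxcl10, Nup54). Genes with any other label were left out of that order. The levels of Cxcl9 and Cxcl10 did not run together across the diets. The RefSeq promoters of both (GRCm38.p6, from 250 bases before to 50 after the transcript start) are shown with those of Gbp3, which ran with Cxcl9, and Irf1, the transcription factor between receptor and targets. Capitals mark matches, on either strand, to the GAS letters TTCNNNGAA, the ISRE (GAAA and GAAA with any pair of bases, NN, between) and the kappaB motif, and the lines run 5′ to 3′ along the strand of the gene.
Cxcl9: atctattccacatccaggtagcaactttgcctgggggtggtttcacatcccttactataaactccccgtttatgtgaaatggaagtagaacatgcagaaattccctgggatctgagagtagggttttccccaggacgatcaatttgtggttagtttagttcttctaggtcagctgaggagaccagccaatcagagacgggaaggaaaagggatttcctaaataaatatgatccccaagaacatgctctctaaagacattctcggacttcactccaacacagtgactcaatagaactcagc
Cxcl10: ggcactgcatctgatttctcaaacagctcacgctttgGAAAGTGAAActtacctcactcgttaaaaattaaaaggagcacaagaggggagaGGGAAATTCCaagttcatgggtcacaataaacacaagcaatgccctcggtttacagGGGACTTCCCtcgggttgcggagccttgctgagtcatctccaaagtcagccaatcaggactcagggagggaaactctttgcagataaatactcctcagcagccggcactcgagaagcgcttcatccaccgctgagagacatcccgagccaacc
Gbp3: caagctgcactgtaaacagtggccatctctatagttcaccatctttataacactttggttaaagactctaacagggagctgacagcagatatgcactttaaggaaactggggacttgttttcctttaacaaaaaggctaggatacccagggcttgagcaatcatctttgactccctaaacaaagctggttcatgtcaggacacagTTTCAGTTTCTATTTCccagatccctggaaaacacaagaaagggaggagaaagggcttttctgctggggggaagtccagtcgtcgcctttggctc
Irf1: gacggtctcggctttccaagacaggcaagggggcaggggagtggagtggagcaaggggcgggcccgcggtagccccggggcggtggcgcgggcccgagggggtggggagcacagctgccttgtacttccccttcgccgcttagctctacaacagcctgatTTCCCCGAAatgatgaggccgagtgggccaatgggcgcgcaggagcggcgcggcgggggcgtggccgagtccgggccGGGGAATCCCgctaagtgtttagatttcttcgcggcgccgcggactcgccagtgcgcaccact
The Cxcl9 window is chr5:92328030-92328329 on the minus strand and the Cxcl10 window chr5:92348840-92349139 on the minus strand. The Gbp3 window is chr3:142559794-142560093 and the Irf1 window chr11:53769764-53770063, both on the plus strand and each the first of 2 starts listed. The Cxcl10 window held 1 ISRE match and 2 kappaB matches, the Gbp3 window 2 ISRE matches that overlap each other, and the Irf1 window 1 GAS match and 1 kappaB match, while the Cxcl9 window held none of the 3 motifs. Of the other windows, that of Ifng held 1 GAS match and those of Cxcr3, Ifngr1 and Cd274 and the second starts of Irf1 and Gbp3 held none. Of all 32851 RefSeq promoters of 300 bases, 8.30% held a GAS match, 3.44% an ISRE match and 4.51% a kappaB match. A match describes letters only, and a missing match says only that those letters are not in this window.

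Values are log2 array signals, and array medians over genes ran from 7.48 to 7.57. Signal differs between probe sets for reasons other than RNA amount, so a place among the signals of all genes, where one is given, is not an order of RNA amounts. The 9 measured adipocyte markers had a mean signal of 12.95 in LFD. Some arrays also stood high in genes of neighbouring tissues: skeletal muscle genes on LFD mice 2 and 3 and HFD_CR mouse 2, accessory gland genes on LFD mouse 3 and HFD mouse 3, and male germ cell genes on HFD_CR mouse 1. Skeletal muscle genes were also raised on HFD mouse 6 (0.91 above the median array) and LFD mouse 5 (0.79), which were not left out for it. LFD mice 1 and 5 stood high in T cell and NK cell genes. Counts were therefore also taken without LFD mice 2 and 3, HFD mouse 3 and HFD_CR mice 1 and 2 (the 5 arrays high in other tissues). They were also taken without LFD mice 1 and 5, and part of the moves is given below.

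Ifng, the cytokine itself, was below the array's gene median on every array, and no detection call was used here, so it was not shown to lie above background. The LFD mice ran from 6.84 through a median of 7.04 to 7.23, the HFD mice from 6.88 through 6.98 to 7.16, and the HFD_CR mice read 6.79, 6.96, 6.93, 6.95 and 6.79. All 3 groups overlapped. The difference between HFD and LFD was -0.04 ± 0.06 (SE), that between HFD_CR and HFD -0.11 ± 0.07, and that between HFD_CR and LFD -0.15 ± 0.07.

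Ifngr1, the ligand-binding chain of the receptor, stood at percentile 99.0 of mean signal over all genes. LFD mice ran from 12.18 through a median of 12.32 to 12.43 and HFD mice from 12.22 through 12.30 to 12.34, so all HFD mice lay inside the LFD range. The HFD_CR mice read 12.46, 12.43, 12.41, 12.52 and 12.54, all above every HFD mouse, with a difference of 0.17 ± 0.05. The order was thus HFD_CR (12.47 ± 0.06, SD, n = 5) above LFD (12.32 ± 0.11, n = 6) and HFD (12.30 ± 0.04, n = 6), where LFD and HFD did not differ beyond their spread and HFD_CR overlapped LFD.

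Irf1, a transcription factor induced directly by the receptor, was a little higher on both high-fat regimens. LFD mice ran from 8.62 through 8.66 to 8.87, HFD mice from 8.76 through 8.84 to 8.96, and HFD_CR mice read 8.85, 8.91, 8.82, 8.88 and 8.88. LFD mice 1 and 5, at 8.87 and 8.79, were the LFD mice that reached into the other groups' range. HFD exceeded LFD by 0.15 ± 0.05 and HFD_CR exceeded LFD by 0.17 ± 0.05, whereas HFD_CR and HFD differed by 0.02 ± 0.05, a value whose sign turned without HFD mouse 1 and with arrays centred on their medians.

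Cxcl9, the chemokine induced mainly by interferon gamma, had the clearest pattern of the 8. LFD mice ran from 11.99 through a median of 12.20 to 12.28, and HFD mice from 11.17 through 11.33 to 11.45. The HFD_CR mice read 11.63, 11.87, 11.94, 11.65 and 11.91. The 3 groups did not overlap: every HFD mouse lay below every HFD_CR mouse, and every HFD_CR mouse below every LFD mouse. Group means were 12.16 ± 0.10 (SD, n = 6) in LFD, 11.33 ± 0.11 (n = 6) in HFD and 11.80 ± 0.15 (n = 5) in HFD_CR. HFD lay -0.84 ± 0.07 (SE) from LFD, which is 0.561 times the LFD signal, and HFD_CR lay 0.47 ± 0.07 above HFD and -0.36 ± 0.07 from LFD. Leaving out each array in turn kept the first difference between -0.87 and -0.80.

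Cxcl10, the sister chemokine that is also induced by type I interferon and by NF-kappaB, was ordered otherwise. LFD mice were widely spread, from 7.80 through 7.99 to 8.58, while HFD mice ran from 8.12 through 8.33 to 8.52. The HFD_CR mice read 8.13, 7.91, 7.57, 7.57 and 7.58. LFD mice 1 and 5, at 8.58 and 8.32, were the highest LFD mice, and HFD_CR mouse 1 at 8.13 reached just into the HFD range. Cxcl10 in HFD was 0.25 ± 0.13 above LFD, against -0.84 ± 0.07 for Cxcl9, and in HFD_CR it was -0.58 ± 0.14 from HFD, against 0.47 ± 0.07 for Cxcl9. HFD_CR was -0.33 ± 0.14 from LFD, and -0.63 without the 5 arrays high in other tissues, 2 of them LFD and 2 of them HFD_CR.

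Cxcr3, the receptor of both chemokines, was dim, and 4 of 17 arrays read it above their gene median. LFD mice ran from 6.98 through 7.41 to 7.77, HFD mice from 7.30 through 7.47 to 7.56, and HFD_CR mice read 7.15, 7.28, 7.26, 7.20 and 7.52. All groups overlapped, and the widest spread was in LFD, with mouse 5 highest and mouse 3 lowest. The differences were 0.05 ± 0.10 for HFD against LFD, -0.17 ± 0.11 for HFD_CR against HFD and -0.12 ± 0.11 for HFD_CR against LFD. The sign of the first turned without LFD mouse 3 (-0.04) and without the 5 arrays high in other tissues (-0.09).

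Gbp3, a guanylate-binding protein that acts in defence against intracellular microbes, ran with Cxcl9. LFD mice ran from 8.31 through 8.44 to 8.80 and HFD mice from 7.78 through 7.95 to 8.02, with no overlap. The HFD_CR mice read 8.19, 8.31, 8.26, 7.93 and 8.08, between the other groups, reaching into HFD in mouse 4 and into LFD in mouse 2. Gbp3 in HFD lay -0.58 ± 0.09 from LFD, and in HFD_CR it lay 0.22 ± 0.09 above HFD and -0.36 ± 0.09 from LFD. Gbp genes are close copies of one another, so the share of its signal that came from relatives is uncertain.

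Cd274, which encodes PD-L1, differed little between the diets. LFD mice ran from 8.95 through 9.13 to 9.28, HFD mice from 8.78 through 9.08 to 9.15, and HFD_CR mice read 8.93, 8.92, 8.90, 8.80 and 8.97. All groups overlapped, and 4 of the 5 HFD_CR mice lay below the lowest LFD mouse. The differences were -0.09 ± 0.07 for HFD against LFD, -0.13 ± 0.07 for HFD_CR against HFD and -0.22 ± 0.07 for HFD_CR against LFD.

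**Figure D1:**
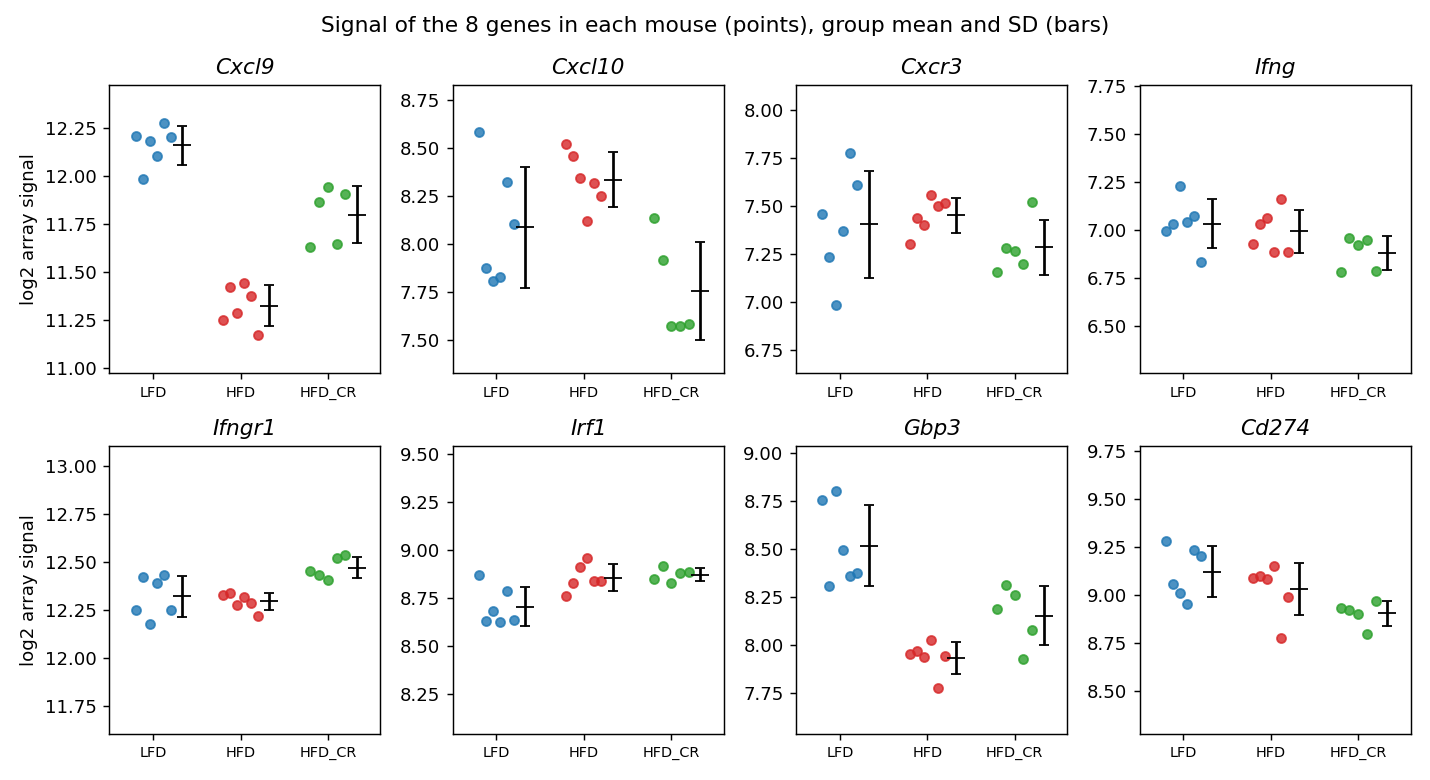
Log2 array signal (vertical axis, the same span in every panel) of the 8 genes in each mouse, by diet group (horizontal axis), with group means and SD. Cxcl9 separates all 3 groups, from 11.17 to 11.45 in HFD, 11.63 to 11.94 in HFD_CR and 11.99 to 12.28 in LFD, and Gbp3 separates HFD (7.78 to 8.02) from LFD (8.31 to 8.80), while the other genes overlap between LFD and HFD.

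In HFD against LFD, 2 of the 8 genes (Cxcl9 and Gbp3) were lower in every HFD mouse than in every LFD mouse and none was higher in every one. Over all genes, 5.21% were lower and 9.05% higher without overlap (14.3% in all), and since the genes were chosen on the values of all 3 groups nothing is read from this count or from those of the other comparisons. In HFD_CR against HFD, 2 of the 8 (Cxcl9 and Ifngr1) were higher without overlap and none was lower, where 5.42% of all genes were higher and 8.26% lower (13.7% in all). In HFD_CR against LFD, Cxcl9 alone was lower without overlap and none was higher, where 2.43% of all genes were lower and 4.24% higher (6.67% in all). The differences of the 8 genes had a median of -0.03 in HFD against LFD, -0.05 in HFD_CR against HFD and -0.19 in HFD_CR against LFD. Among all genes ranked by their difference between HFD and LFD, Cxcl9 stood at percentile 0.667 and Gbp3 at 1.60, while Irf1 stood at 80.4 and Cxcl10 at 87.9. The selection rule has no threshold, so no values just inside or outside one can be given.

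**Figure D2:**
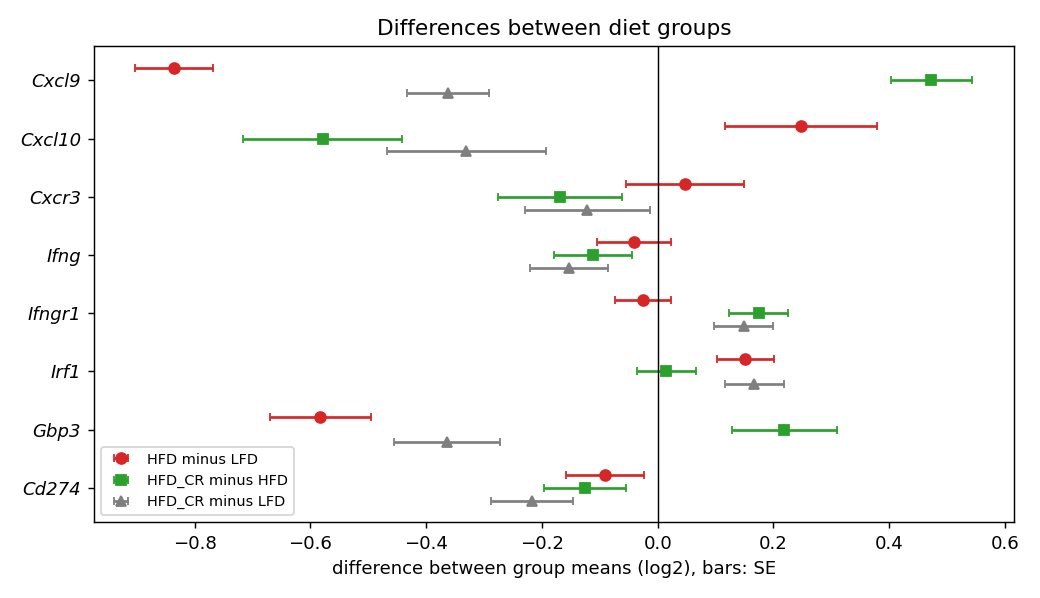
Difference in log2 signal between group means (horizontal axis) for the 8 genes (vertical axis), with SE from the fit over 17 arrays, for the 3 comparisons. Cxcl9 lies at -0.84 and Gbp3 at -0.58 in HFD minus LFD, where Cxcl10 lies at 0.25 and Irf1 at 0.15.

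Other genes of the pathway were taken from 5 lists with 75 genes, of which 67 were measured, and these were tested in the limma fit with Benjamini-Hochberg adjustment over all genes. A gene is said to rise or fall where its adjusted p was under 0.05. In HFD against LFD 13 of the 67 rose and 16 fell, where 16.5% of all genes rose and 11.3% fell (27.8% in all). In HFD_CR against HFD 4 rose and 15 fell, where 7.69% of all genes rose and 11.3% fell (19% in all). In HFD_CR against LFD 2 rose and 6 fell, where 5.8% rose and 3.28% fell (9.08% in all). Without the 5 arrays high in other tissues the 13 that rose became 8 and the 16 that fell became 12. Without LFD mice 1 and 5, the pair high in T cell genes, the 13 became 17 and the 16 became 11. More pathway genes thus rose than fell in HFD against LFD without that pair, and fewer with it. Without the same pair, the 6 that fell in HFD_CR against LFD became 1.

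Of 17 inducers of interferon gamma 2 rose (11.8%), 3 fell (17.6%) and 12 did not pass in HFD against LFD, close to the 16.5% and 11.3% of all genes, with a median difference of -0.04. The count of 2 became 1 without HFD mouse 2, 3 or 6 or LFD mouse 6 and 0 without the 5 arrays high in other tissues. Il15ra, which presents the cytokine IL-15 to NK cells and T cells, averaged 9.77 ± 0.08 (SD, n = 6) in LFD, 9.45 ± 0.08 (n = 6) in HFD and 10.02 ± 0.16 (n = 5) in HFD_CR. It fell by 0.32 ± 0.06 (SE) in HFD against LFD (adjusted p = 0.000807) and rose by 0.56 ± 0.07 in HFD_CR against HFD (adjusted p = 1.75e-05), with no overlap in either. Il18, a cytokine that drives interferon gamma release, fell by 0.33 ± 0.09 in HFD (adjusted p = 0.0126), and Il12rb2, a chain of the IL-12 receptor, rose by 0.30 ± 0.08 (adjusted p = 0.00572). Both calls were lost without the 5 arrays high in other tissues, at adjusted p = 0.119 and 0.0566. Tbx21, the T-bet factor of cells that make interferon gamma, did not pass, at 0.14 (adjusted p = 0.289).

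Among receptor and signalling genes more rose than fell with high-fat feeding, and restriction went the other way. Of 14 measured genes 6 rose (42.9%) and 1 fell (7.14%), where 16.5% of all genes rose and 11.3% fell. The median difference was 0.14. Without the 5 arrays high in other tissues the 6 became 4. The 1 became 0 without HFD mouse 1 or 5 or LFD mouse 1 or 5. In HFD_CR against HFD none rose and 6 fell (42.9%), with a median of -0.16, where 7.69% of all genes rose and 11.3% fell. Ifngr2, the signalling chain that pairs with Ifngr1, ran from 10.39 to 10.67 in LFD, from 11.04 to 11.22 in HFD and from 10.48 to 10.82 in HFD_CR. It rose by 0.62 ± 0.06 in HFD (adjusted p = 8.08e-07) and fell by 0.53 ± 0.07 with restriction (adjusted p = 2.87e-05). Irf8, a transcription factor of macrophages and dendritic cells that interferon gamma induces, rose by 0.97 ± 0.12 in HFD (adjusted p = 9.33e-06) and fell by 0.96 ± 0.13 with restriction (adjusted p = 5.18e-05). Socs3, a feedback inhibitor of Jak signalling, rose by 0.35 ± 0.09 (adjusted p = 0.00549) and fell by 0.40 ± 0.09 (adjusted p = 0.00468). Its relative Socs1 did not pass in HFD against LFD, at 0.10 (adjusted p = 0.268). Ciita, the master regulator of MHC class II genes, fell by 0.40 ± 0.10 in HFD_CR against HFD (adjusted p = 0.00806).

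Most of the interferon-inducible GTPases other than Gbp3 were lower in HFD. Their median difference in HFD against LFD was -0.46, where that of all genes was -0.0032. Of 13 measured genes none rose and 9 fell (69.2%) in this comparison, where 16.5% of all genes rose and 11.3% fell. The count was 8 to 9 when any single array was left out, 7 without LFD mice 1 and 5, and 6 without the 5 arrays high in other tissues. Iigp1, an immunity-related GTPase, ran from 9.40 to 9.95 in LFD, from 8.59 to 9.21 in HFD and from 9.05 to 9.51 in HFD_CR, and fell by 0.77 ± 0.11 in HFD (adjusted p = 3.57e-05). Gbp7 fell by 0.55 ± 0.09 (adjusted p = 0.000162) and rose by 0.43 ± 0.10 in HFD_CR against HFD (adjusted p = 0.00326). Gbp4 fell by 0.67 ± 0.19 in HFD (adjusted p = 0.0112) and Gbp2b by 0.57 ± 0.18 (adjusted p = 0.0218), with larger errors. The Gbp4 call was lost without LFD mice 1 and 5 (adjusted p = 0.0743), and that of Gbp2b under 4 alternatives.

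With restriction, 2 of the 13 GTPases (15.4%) rose against HFD and none fell, where 7.69% of all genes rose and 11.3% fell. Besides Gbp7 this was Gbp11, at 0.58 ± 0.16 (adjusted p = 0.0142), a call lost without HFD_CR mouse 5 (adjusted p = 0.051) and without the 5 arrays high in other tissues (0.0601). Against LFD none rose and 5 fell (38.5%), where 5.8% of all genes rose and 3.28% fell. The 5 became 3 without LFD mouse 3, HFD_CR mouse 3 or HFD_CR mouse 5 and 1 without LFD mice 1 and 5. Irgm2, a regulator of the immunity-related GTPases, averaged 10.11 ± 0.13 in LFD, 9.65 ± 0.16 in HFD and 9.71 ± 0.11 in HFD_CR, and its fall of 0.40 ± 0.08 in HFD_CR against LFD (adjusted p = 0.00349) held under every alternative run. Igtp fell by 0.49 ± 0.11 in the same comparison (adjusted p = 0.00888), which became 0.0515 without LFD mice 1 and 5. The GTPases are close copies within their subfamilies, so some of these signals may be shared.

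**Figure D3:**
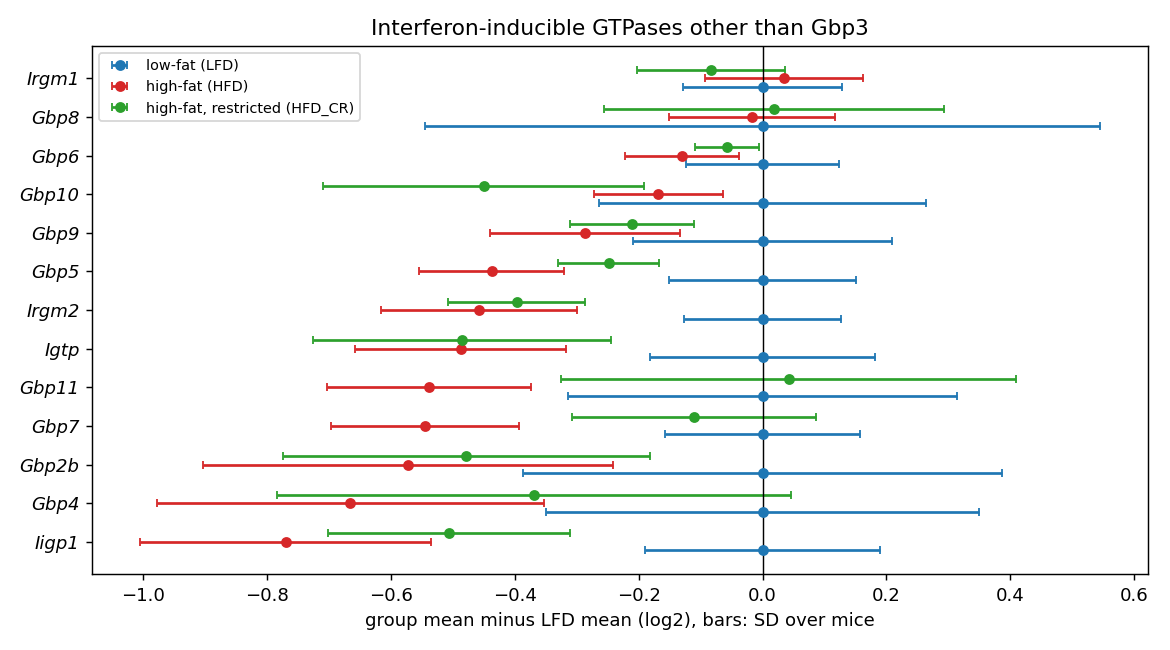
Group mean minus the LFD mean in log2 signal (horizontal axis) for the 13 measured interferon-inducible GTPases other than Gbp3 (vertical axis), with points for the 3 diet groups and bars for the SD over mice. HFD points lie farthest to the left for Iigp1 (-0.77) and Gbp4 (-0.67), and the HFD_CR point lies next to the HFD point for Irgm2 (-0.40 against -0.46) but near the LFD mean for Gbp7 (-0.11 against -0.55).

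MHC class I and immunoproteasome genes, which present peptides to CD8 T cells, are classic interferon gamma targets. Of 13 such genes 3 rose (23.1%), 2 fell (15.4%) and 8 did not pass in HFD against LFD, near the 16.5% and 11.3% of all genes. The immunoproteasome subunit Psmb10 rose by 0.33 ± 0.06 (adjusted p = 0.000474), whereas Psme1, a subunit of the proteasome activator, fell by 0.27 ± 0.06 (adjusted p = 0.00298). The peptide transporter gene Tap1 fell by 0.25 ± 0.07 (adjusted p = 0.00989, and 0.079 without LFD mice 1 and 5). In HFD_CR against HFD none rose and 5 fell (38.5%), where 7.69% of all genes rose and 11.3% fell. Among the 5 were the heavy chain gene H2-K1, by 0.26 ± 0.05 (adjusted p = 0.000912), and Psmb10, by 0.26 ± 0.07 (adjusted p = 0.00888). The count was 3 without HFD_CR mouse 4 or without the 5 arrays high in other tissues.

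Of 10 other targets 2 rose (20%) and 1 fell (10%) in HFD against LFD, where 16.5% of all genes rose and 11.3% fell. In HFD_CR against HFD 1 rose (10%) and 3 fell (30%), where 7.69% of all genes rose and 11.3% fell. In HFD_CR against LFD the limma count was 0, with 1 gene at an unadjusted p under 0.05. Only RNA was measured for Cxcl11, another CXC chemokine gene, and whether this strain makes a working protein from it is not shown here. Cxcl11 ran from 7.10 to 7.50 in LFD, from 6.70 to 7.02 in HFD and from 6.97 to 7.46 in HFD_CR. These signals lay near or below the array medians over genes (7.48 to 7.57), and Cxcl11 was not shown to lie above background. It fell by 0.47 ± 0.09 in HFD against LFD (adjusted p = 0.000357) and rose by 0.39 ± 0.09 in HFD_CR against HFD (adjusted p = 0.00451), so its group means were ordered as those of Cxcl9 and not as those of Cxcl10. Fcgr1, the high-affinity IgG receptor of macrophages, rose by 1.47 ± 0.14 in HFD (adjusted p = 4.68e-07) and fell by 1.48 ± 0.15 with restriction (adjusted p = 7.66e-06). Icam1, an adhesion molecule, rose by 0.64 ± 0.09 (adjusted p = 2.07e-05) and fell by 0.51 ± 0.09 (adjusted p = 0.000611). Ido1 and Nos2, targets in activated myeloid cells, did not pass in HFD against LFD, at 0.05 (adjusted p = 0.77) and -0.01 (adjusted p = 0.954).

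**Figure D4:**
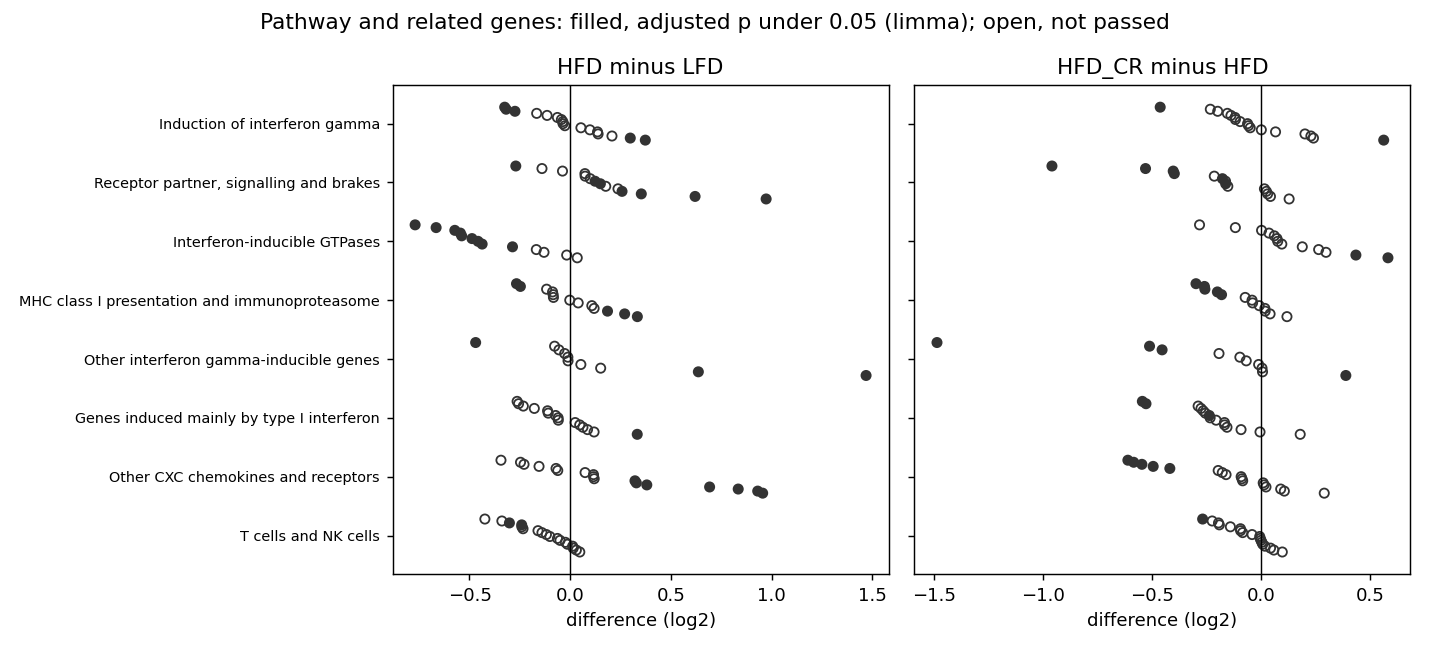
Difference in log2 signal (horizontal axis) of each measured gene, 1 point per gene, in 8 lists of pathway, related and T cell and NK cell genes (vertical axis), for HFD minus LFD and HFD_CR minus HFD, with filled points for adjusted p under 0.05 in limma. In HFD minus LFD, 9 of 13 GTPases lie to the left as filled points and none to the right, whereas 6 of 14 signalling genes lie to the right and 1 to the left.

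Few genes of the type I interferon response passed between the unrestricted diets. Of 15 genes 1 rose (6.67%) and none fell in HFD against LFD, where 16.5% of all genes rose and 11.3% fell. Bst2, an antiviral membrane protein, was the gene that rose, by 0.33 ± 0.10 (adjusted p = 0.0184, and 0.0505 without LFD mice 1 and 5). In HFD_CR against HFD none rose and 3 fell (20%), where 7.69% of all genes rose and 11.3% fell. Among the 3 were Bst2, by 0.53 ± 0.11 (adjusted p = 0.00158), and Rtp4, by 0.54 ± 0.15 (adjusted p = 0.0143). Without the 5 arrays high in other tissues 8 fell. In HFD_CR against LFD 1 rose (6.67%) and 5 fell (33.3%), where 5.8% of all genes rose and 3.28% fell. The 1 became 0 without any of 11 single arrays, which are HFD_CR mice 1 to 4, HFD mice 1 to 4 and LFD mice 4 to 6, and the 5 became 2 without LFD mouse 1 or 3 or HFD_CR mouse 3 or 4, and 1 without LFD mice 1 and 5 together.

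Several other CXC chemokines and receptors rose with the high-fat diet. Of 17 genes outside the axis 7 rose (41.2%) and none fell in HFD against LFD, where 16.5% of all genes rose and 11.3% fell. In HFD_CR against HFD none rose and 5 fell (29.4%), where 7.69% of all genes rose and 11.3% fell. The chemokine receptor Cxcr4 ran from 8.55 to 8.93 in LFD, from 9.56 to 9.85 in HFD and from 9.01 to 9.41 in HFD_CR, with no overlap among the 3 groups, in the reverse order of Cxcl9. It rose by 0.96 ± 0.08 in HFD (adjusted p = 6.29e-08) and fell by 0.49 ± 0.08 with restriction (adjusted p = 0.000288). Cxcl14 rose by 0.93 ± 0.11 (adjusted p = 4.74e-06), Cxcl16, a ligand made by macrophages, by 0.83 ± 0.09 (adjusted p = 1.62e-06) and Cxcl2, a neutrophil chemokine, by 0.69 ± 0.09 (adjusted p = 8.48e-06). In HFD_CR against HFD they fell by 0.61 ± 0.12 (adjusted p = 0.00111), 0.58 ± 0.10 (adjusted p = 0.000283) and 0.55 ± 0.09 (adjusted p = 0.000356).

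Markers of macrophages and adipocytes moved beside these genes. The mean of 12 macrophage markers was 9.91 ± 0.16 (SD) in LFD (9.63 to 10.11), 11.10 ± 0.16 in HFD (10.85 to 11.32) and 10.33 ± 0.17 in HFD_CR (10.13 to 10.57). Of the 12, 11 rose (91.7%) and none fell in HFD against LFD, where 16.5% of all genes rose and 11.3% fell. The mean of 9 adipocyte markers was 12.95 ± 0.06 in LFD, 12.70 ± 0.07 in HFD and 12.91 ± 0.04 in HFD_CR. Of the 9, 1 rose (11.1%) and 6 fell (66.7%) in HFD against LFD, beside the same 16.5% and 11.3% of all genes. The mean of 18 T cell and NK cell markers was 7.36 ± 0.23 in LFD (7.13 to 7.67), 7.23 ± 0.08 in HFD (7.09 to 7.33) and 7.17 ± 0.07 in HFD_CR (7.11 to 7.27). Of these none rose and 2 fell (11.1%) in HFD against LFD, where 16.5% of all genes rose and 11.3% fell. The 2 became 1 or 0 without any single HFD mouse or LFD mouse 1, 3 or 5. Without the 5 arrays high in other tissues the 2 became 0. Without LFD mice 1 and 5, 1 rose and 0 fell. The mean of 10 B cell markers was 8.88 ± 0.46, 8.51 ± 0.42 and 8.40 ± 0.29 in the same order. The part of these cell types in the levels of Cxcl9 and Gbp3 was not tested. With the B cell mean as a covariate, and in a separate fit without LFD mice 1 and 5, Cxcl9 and Gbp3 kept the sign of each of their 3 differences. Both genes were chosen on these values, and the macrophage and adipocyte means were not used as covariates, so nothing is read from the kept signs.

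Across the 17 arrays Cxcl9 was low where macrophage markers were high, but the diet groups separate both measures, so only deviations from group means were compared, as a description over 17 arrays of 3 groups. For Cxcl9 these gave Pearson r = -0.44 (Spearman rho = -0.40) with the macrophage mean, 0.48 (0.65) with the T cell and NK cell mean, 0.32 (0.25) with the adipocyte mean, 0.30 (0.28) with Gbp3 and 0.03 (0.0070) with Cxcl10. Irf1 gave 0.81 (0.72) with the T cell and NK cell mean and 0.76 (0.75) with the mean of the other interferon gamma targets. Cd274 gave 0.74 (0.70) with the MHC class I mean. These values were picked from the correlations of all 8 genes with each other and with the lists. LFD mice 1 and 5 were the highest LFD mice in Irf1 (8.87 and 8.79) and in the T cell and NK cell mean (7.62 and 7.67). Both mice entered these correlations, and their weight in them was not tested.

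**Figure D5:**
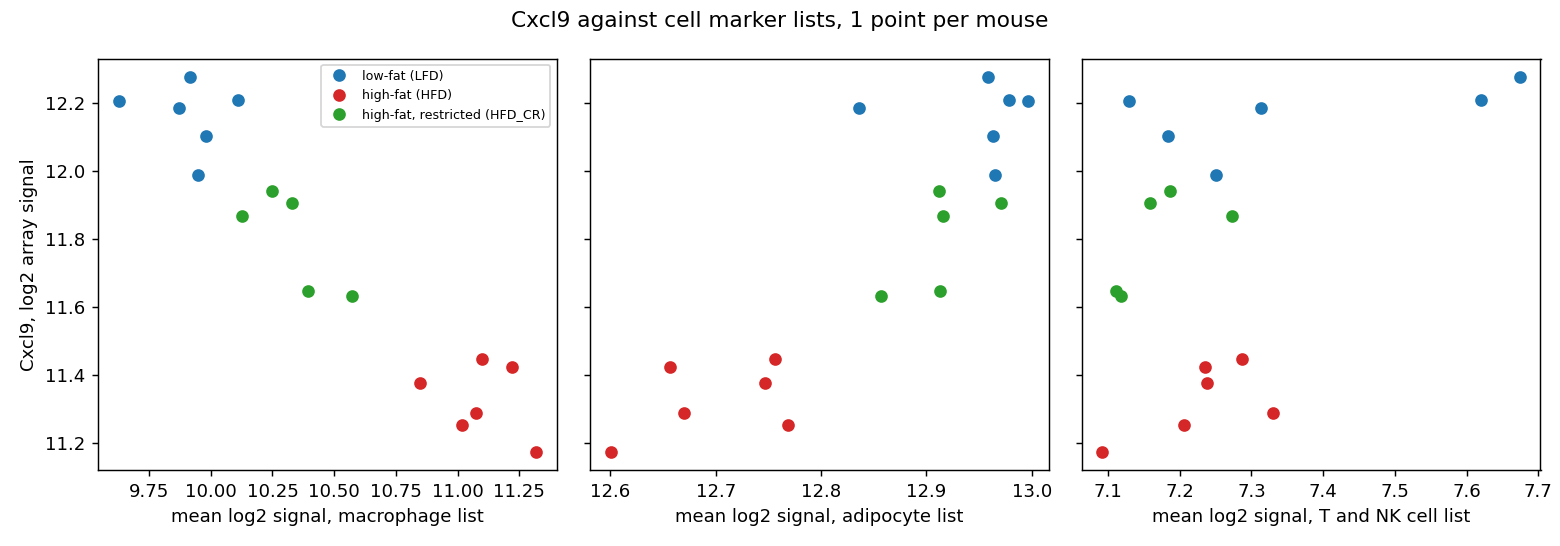
Cxcl9 (vertical axis, log2 signal) against the means of macrophage, adipocyte, and T cell and NK cell markers (horizontal axes, log2 signal) in each of 17 mice, coloured by diet group. The groups separate along the macrophage axis (9.63 to 10.11 in LFD, 10.85 to 11.32 in HFD), while within groups the deviations of Cxcl9 had r = -0.44 with macrophage and 0.48 with T cell and NK cell markers.

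The genes whose log2 values were most like those of Cxcl9 over the 17 arrays were Fam120c (r = 0.96, rho = 0.96), Man2a2 (0.96, 0.94), Plpp6 (0.96, 0.91), Rhbdl1 (0.96, 0.93) and Alb (0.96, 0.91), values that mostly repeat the order of the 3 groups. Since they were picked for this likeness, their differences between the diets are a description: Alb, which encodes albumin, lay -2.36 ± 0.20 from LFD in HFD and 1.19 ± 0.21 above HFD in HFD_CR. By deviations from group means the closest were Hrh2 (r = 0.83, rho = 0.82), Adat1 (0.79, 0.82), Olfr380 (0.79, 0.78), Fam120c (0.78, 0.75) and Tmem134 (0.77, 0.78). Fam120c, which encodes a protein of little-known function, was among the 5 by both measures, and lay -0.48 ± 0.05 from LFD in HFD and 0.34 ± 0.06 above HFD in HFD_CR. Olfr380 averaged 4.87 to 4.88 in the 3 groups, near the lowest value of the table (4.55). With the 2 arrays farthest from the median of Cxcl9 left out, the correlations of the genes named here stayed between 0.69 and 0.97. They were picked as the highest among many genes, and the remaining arrays are mostly the same, so nothing is read from their size.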

How the data were processed

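RNA of periprostatic fat from 17 mice was hybridised to Affymetrix Mouse Gene 2.0 ST arrays. The authors deposited log2 signals, 1 per probe set and array (4.55 to 14.4). The tools named, per the submitters' processing notes, are RMA, limma, and R (3.5.0), without roles. RMA subtracts background, makes arrays comparable and combines the probes of a set. The files name no genome build.

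Of 33793 probe sets, 23521 had 1 gene symbol in the platform annotation, 1814 several and 8458 none. The 1-symbol probe set with the highest mean was used per gene, which left 22180 genes. With limma 3.58.1 (R 4.3.3; lmFit, eBayes, 14 residual degrees of freedom) group means were fitted to the 17 arrays together, and p-values were Benjamini-Hochberg adjusted over all genes with a threshold of 0.05. Errors of differences are standard errors of this fit. Mice are separate animals. The number of arrays limits the precision, and no detection calls were used.

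The 8 genes and the 17 lists (226 genes, 205 measured) were chosen with earlier results of these data known. Named are all 8, up to 4 passing genes with the largest difference per list and comparison (or the 2 with the smallest p), and the 5 most like Cxcl9 by each measure. Some of these are given only in the counts, and Tbx21, Socs1, Ido1 and Nos2 were picked for their role. Alternatives were leaving out each array, the mouse number as a replicate block, probe sets averaged, genes above the median level, only the arrays compared, arrays centred on their medians, a repeated quantile normalization, eBayes with trend and robust, a B cell covariate and leaving out 5 arrays high in other tissues. Centring on medians over genes and leaving out LFD mice 1 and 5 were added after seeing the data. The labels number the mice in each group but do not say that numbers are shared, so numbers were not taken to pair mice. Over 16 same-numbered pairs of mice, deviations correlated from -0.11 to 0.41, with 5 above 0.1. These values cannot decide pairing, since the highest is that of LFD mouse 3 and HFD mouse 3, both high in accessory gland genes. The fit was also tested on simulated data with independent noise, in which 200 genes were shifted by 0.5 or 1 in log2. In the comparisons HFD with LFD, HFD_CR with HFD, and HFD_CR with LFD, a change of 0.5 was recovered for 90%, 86% and 82% of such genes. Genes that were not shifted gave 8, 16 and 7 calls. Far more genes passed in the data and noise shared between genes was not simulated, so recovery in the data may differ. Promoters came from RefSeq (GRCm38.p6). Plots used matplotlib 3.10.9 (Python 3.11.15).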

Additional observations from a re-analysis of the deposited data

Results flagged for a closer look

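A mouse stood apart from its group by Dixon's criterion at the 95% level in 9 of the 156 combinations of named gene and group examined, where chance gives about 1 in 20. Among the 8 genes of the axis this was 1 of 24: Gbp3 in HFD mouse 5 read 7.78, below the next HFD mouse at 7.94. The same mouse was lowest in its group for Irf8 (9.66) and Gbp7 (8.72) and highest for Alb (8.89).

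Other HFD mice stood high in Socs3 (mouse 1, 8.46) and Man2a2 (mouse 4, 10.98). In LFD, mouse 1 stood high in H2-K1 (12.78) and mouse 2 low in Hrh2 (7.15). In HFD_CR, mouse 5 stood low in Vsir (11.36).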

How the results depend on the processing

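Over 28 alternatives none of the named genes' calls changed direction. Among the calls of single list genes and the counts of single lists, 19121 values under an alternative stayed on their side of the threshold (for counts, within 1.5 times), 254 rose past it and 488 fell short of it. Without the 5 arrays high in other tissues, 8 pathway genes rose in HFD against LFD (13 over all arrays), 1297 genes passed in HFD_CR against LFD (2015) and Cxcl10 lay -0.63 from LFD in HFD_CR (-0.33). The 2 pathway genes that rose in HFD_CR against LFD became 1 with arrays centred on their medians, with the B cell covariate, without those 5 arrays and with centring over genes, 0 with only the arrays compared and 0 with the mouse number as a replicate block, and 0 to 2 when each array was left out. The 6 that fell became 3 with the B cell covariate and 1 without LFD mice 1 and 5. Fewer arrays entered the fits that leave arrays out or take only those compared, and the cause of these changes was not tested. With the replicate block 6056, 4010 and 1773 genes passed in the 3 comparisons (6165, 4213 and 2015 without it). Leaving out each array gave 5396 to 6426, 3382 to 4601 and 1507 to 2355. With arrays centred on medians over genes, 3076 genes rose and 3347 fell in HFD against LFD, or 47.9% higher in place of 59.4%. Of the 8 genes of the axis, Ifng and Cxcr3 were not among the genes above the median level, and neither was shown to lie above background.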

Other observations

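Of 12 checkpoint genes other than Cd274, 5 rose, none fell and 7 did not pass in HFD against LFD in the limma fit, with a median difference of 0.08, where 16.5% of all genes rose, and 3 without the 5 arrays high in other tissues. Havcr2, which encodes the receptor TIM-3 of T cells and myeloid cells, rose by 0.90 ± 0.12 (adjusted p = 2.39e-05) and fell by 0.67 ± 0.13 in HFD_CR against HFD (adjusted p = 0.00131), and Vsir, which encodes the ligand VISTA, rose by 0.47 ± 0.07 (adjusted p = 6.01e-05). The macrophage mean moved the same way, and its part was not tested.

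Of 8 dendritic cell markers 1 rose (12.5%) and 2 fell (25%) in HFD against LFD, where 16.5% of all genes rose and 11.3% fell. The rise was lost without HFD mouse 1, 2 or 3, LFD mouse 2, 4 or 6, or HFD_CR mouse 2 or 4. Siglech, a marker of plasmacytoid dendritic cells, ran from 7.40 to 7.87 in LFD, from 6.88 to 7.20 in HFD and from 7.02 to 7.28 in HFD_CR. It fell by 0.60 ± 0.07 in HFD (adjusted p = 5.22e-06) and by 0.46 ± 0.08 in HFD_CR against LFD (adjusted p = 0.000841). Itgae, carried by a subset of dendritic cells and T cells, fell by 0.51 ± 0.09 in HFD (adjusted p = 0.000302) and by 0.40 ± 0.10 in HFD_CR against LFD (adjusted p = 0.0121). Siglech and Itgae were not among the genes above the median level, and neither was shown to lie above background.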
